A study of Mus musculus with 16 samples.

Results

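The immunoglobulin variable segments were taken as every listed gene whose symbol starts with Ighv, Igkv or Iglv and a digit. This gave 207 of the 23179 genes of the table, of which 107 were heavy-chain (Ighv), 97 kappa (Igkv) and 3 lambda (Iglv) segments. Members were picked by symbol alone, though the topic was chosen with earlier results of these data known. No listed gene had fewer than 10 reads in all, so segments with fewer are not among the 207. All 207 were found in the GENCODE M21 annotation of GRCm38, where 192 were typed as variable genes and 15 as variable pseudogenes, out of 216 and 129 annotated. The heavy segments lay on chromosome 12 between 113578504 and 116010093, the kappa segments on chromosome 6 between 67555497 and 70704177, and the lambda segments on chromosome 16 between 19085017 and 19260859.

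RNA-Seq was performed on the mammary fat pad (the 9th) opposite the pad (the 4th) that had received E0771 mammary cancer cells 22 weeks after randomization, in female wild-type C57BL/6N mice (C57BL/6NCrl in the study's methods). CON-LFD mice ate the low-fat control diet throughout. The other groups first became obese on a diet of 60% fat and then stayed on it (DIO-HFD), were switched to low-fat diet (DIO-LFD), or had vertical sleeve gastrectomy, which removes most of the stomach, together with low-fat diet (DIO-VSG). Every mouse without the gastrectomy had sham surgery, so all groups shared an operation and a tumor, and each group had 4 libraries. The labels gave no ages. Each library carried a number in its label that no other library of any group had, which was read as the number of its mouse, so the libraries were taken as separate mice.

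A B cell builds each antibody chain by joining 1 variable segment to joining segments, with a diversity segment between them in heavy chains, and then transcribes the joined product together with a constant gene. The cell and its daughters therefore carry 1 productive heavy and 1 light segment. The segments read in a tissue show which ones its B cells use and how unevenly. Unrelated B cells can use the same segment, so a high share does not by itself mark 1 cell and its daughters. Plasma cells, the antibody-secreting descendants, hold far more immunoglobulin RNA per cell than resting B cells, and a few of them can outweigh many resting cells. In bulk tissue, fewer cells and less RNA per cell cannot be told apart.

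The libraries held 46907377 to 57610899 recovered reads, and Adipoq, the adipocyte hormone adiponectin and a defining marker of fat tissue, was at 30428 to 123530 normalized counts per library (counts divided by the size factor of the library). The labels also gave E0771 and mammary cancer as cell line and cell type of these samples, although the tissue label was normal contralateral mammary tissue. CON-LFD replicate 2 stood apart from all other libraries, with 80 reads over all variable segments together.

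Segments that led the heavy or light reads of a library are shown first, because the uneven use described here came from such leaders. They are the leaders of CON-LFD replicate 3, DIO-HFD replicates 3 and 4 and the light leader of DIO-LFD replicate 3, with Igkv10-96, which led the light reads of 3 libraries. Other leaders, some with larger shares than Igkv10-96, are not printed. Each line gives the last 297 bases of the variable exon in the GRCm38 reference sequence with GENCODE M21 exons, 5′ to 3′ on the coding strand, and these are germline bases, not sequences read from the mice. Capitals mark the codon of the conserved last cysteine and the germline bases after it, which enter the third complementarity-determining region, the loop that V(D)J joining makes most variable. Igkv17-127 is at chr6:67861363-67861659 and Igkv14-126 at chr6:67896346-67896642, both on the plus strand. Ighv11-2 is at chr12:114048241-114048537 and Ighv1-52 at chr12:115145487-115145783, both on the minus strand. Igkv2-137 is at chr6:67555920-67556216 on the plus strand, and Igkv5-39 is at chr6:69900424-69900720 on the minus strand. Ighv5-17 is at chr12:113859149-113859445 and Igkv10-96 at chr6:68631963-68632259, both on the minus strand.
Ighv11-2: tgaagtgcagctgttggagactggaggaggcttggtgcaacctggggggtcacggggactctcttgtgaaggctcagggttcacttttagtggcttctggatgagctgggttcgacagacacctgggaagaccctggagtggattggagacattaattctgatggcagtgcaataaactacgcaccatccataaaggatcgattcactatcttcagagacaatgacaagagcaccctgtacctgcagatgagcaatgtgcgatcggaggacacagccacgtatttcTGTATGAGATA
Igkv14-126: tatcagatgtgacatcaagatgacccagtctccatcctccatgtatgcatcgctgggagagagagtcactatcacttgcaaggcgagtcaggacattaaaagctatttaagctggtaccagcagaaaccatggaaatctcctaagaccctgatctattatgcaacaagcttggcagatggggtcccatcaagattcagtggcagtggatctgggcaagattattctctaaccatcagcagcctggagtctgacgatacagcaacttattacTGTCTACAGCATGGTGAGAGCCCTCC
Ighv1-52: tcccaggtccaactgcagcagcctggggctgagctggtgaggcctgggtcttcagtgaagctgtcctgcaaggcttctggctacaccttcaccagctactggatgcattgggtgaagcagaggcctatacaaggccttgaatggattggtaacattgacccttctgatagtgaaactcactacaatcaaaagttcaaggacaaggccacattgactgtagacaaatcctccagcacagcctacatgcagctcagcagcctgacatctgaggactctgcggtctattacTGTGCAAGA
Igkv2-137: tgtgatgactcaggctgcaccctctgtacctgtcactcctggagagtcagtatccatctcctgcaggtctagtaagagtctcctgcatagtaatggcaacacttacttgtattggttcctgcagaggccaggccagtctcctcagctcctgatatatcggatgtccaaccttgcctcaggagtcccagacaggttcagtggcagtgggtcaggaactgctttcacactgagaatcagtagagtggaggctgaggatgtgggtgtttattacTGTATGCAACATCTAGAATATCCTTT
Ighv5-17: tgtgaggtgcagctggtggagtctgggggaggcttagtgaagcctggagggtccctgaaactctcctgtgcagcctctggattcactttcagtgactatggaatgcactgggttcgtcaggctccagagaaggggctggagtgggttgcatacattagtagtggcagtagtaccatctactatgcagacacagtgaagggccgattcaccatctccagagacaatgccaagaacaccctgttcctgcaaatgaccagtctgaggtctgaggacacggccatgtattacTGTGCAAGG
Igkv5-39: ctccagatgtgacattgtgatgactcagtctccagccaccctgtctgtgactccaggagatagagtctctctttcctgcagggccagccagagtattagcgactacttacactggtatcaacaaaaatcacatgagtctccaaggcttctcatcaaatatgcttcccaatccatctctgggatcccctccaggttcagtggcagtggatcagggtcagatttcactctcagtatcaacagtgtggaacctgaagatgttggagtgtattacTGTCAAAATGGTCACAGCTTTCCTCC
Igkv17-127: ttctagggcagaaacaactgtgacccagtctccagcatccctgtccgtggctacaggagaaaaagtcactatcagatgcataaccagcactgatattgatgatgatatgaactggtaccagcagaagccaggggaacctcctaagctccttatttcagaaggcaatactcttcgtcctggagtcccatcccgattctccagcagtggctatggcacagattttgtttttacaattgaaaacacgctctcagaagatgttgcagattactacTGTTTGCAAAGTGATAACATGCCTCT
Igkv10-96: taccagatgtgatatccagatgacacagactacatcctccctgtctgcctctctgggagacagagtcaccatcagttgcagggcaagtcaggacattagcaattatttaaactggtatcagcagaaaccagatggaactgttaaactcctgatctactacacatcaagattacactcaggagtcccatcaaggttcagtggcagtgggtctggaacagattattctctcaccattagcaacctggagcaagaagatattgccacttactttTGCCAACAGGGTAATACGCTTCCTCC

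The kappa exons carried 26 germline bases from the cysteine codon onward, whereas the heavy exons ended 9 to 11 bases after its start, where the diversity segment is joined. Igkv14-126 and Igkv10-96 were the most alike of the kappa segments shown, with 228 of 296 aligned bases identical (77%), and the remaining kappa pairs lay between 61.6% and 67.2%. Ighv11-2 and Ighv5-17 shared 228 of 305 aligned bases (74.8%). Over all members, 76 had no 76-base window, the length of a read, in common with another annotated variable segment, and the median member shared 4.93% of its windows. How the counting split reads that fit several segments was not stated, so values of segments with a near-identical copy are uncertain.

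Variable segment RNA differed up to 1049-fold between libraries. The sum over the 207 segments was 10041, 84.8, 69849 and 1849 normalized counts in CON-LFD replicates 1 to 4. It was 88969, 1602, 601 and 42985 in DIO-HFD, 9483, 11450, 17993 and 15756 in DIO-LFD, and 18638, 45743, 27443 and 16817 in DIO-VSG. CON-LFD and DIO-HFD each held libraries at both ends of the range, whereas the DIO-LFD and DIO-VSG libraries all lay between 9483 and 45743.

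**Figure D1:**
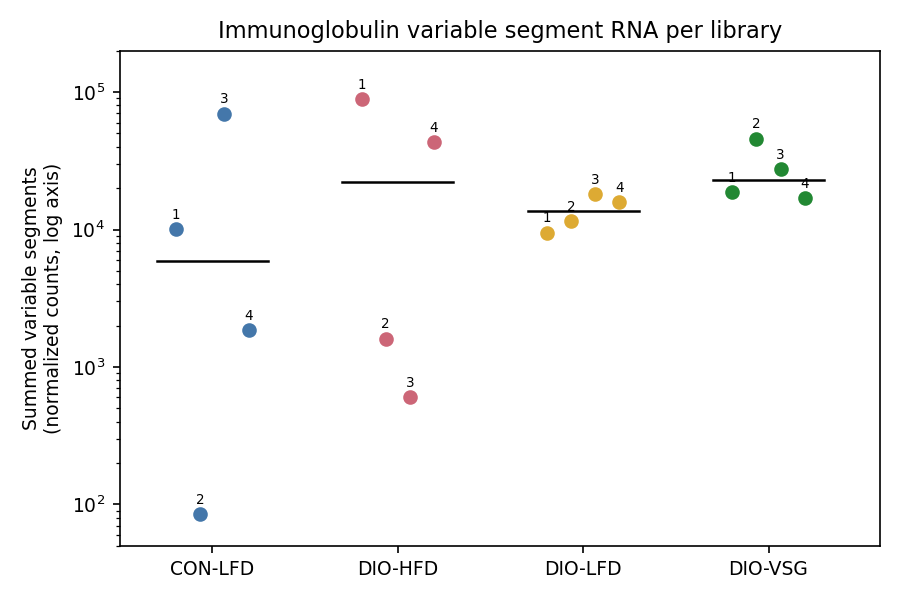
Summed normalized counts of the 207 variable segments in each library on a log axis, by group. Points are libraries with their replicate number, and horizontal lines are group medians. CON-LFD runs from 84.8 to 69849 and DIO-HFD from 601 to 88969, while the DIO-LFD and DIO-VSG libraries lie closer together.

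Group means of the sum were 20456 ± 33213 in CON-LFD, 33539 ± 41899 in DIO-HFD, 13670 ± 3895 in DIO-LFD and 27160 ± 13229 in DIO-VSG (SD, n = 4 each). The ranges overlapped in all 6 comparisons of groups. The log2 ratio of the means was 0.71 for DIO-HFD over CON-LFD, -0.30 for DIO-VSG over DIO-HFD, -1.29 for DIO-LFD over DIO-HFD, 0.99 for DIO-VSG over DIO-LFD, 0.41 for DIO-VSG over CON-LFD and -0.58 for DIO-LFD over CON-LFD. With DIO-HFD replicate 1 left out, the first of these became -0.44 and the second 0.85, and with CON-LFD replicate 3 left out the last became 1.78. Without CON-LFD replicate 2, the ratios to CON-LFD were 0.30 for DIO-HFD, -0.0045 for DIO-VSG and -0.99 for DIO-LFD. Averaged on the log2 scale, where a low library counts as much as a high one, the differences were 1.27, 1.68, 0.77, 0.92, 2.95 and 2.03 in the same order. Thus DIO-VSG and DIO-LFD were below DIO-HFD by the mean of counts and above it by the mean of logs, and DIO-LFD changed side in the same way against CON-LFD. No P value was computed for these sums or for the diversity measures below.

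The sums moved with other B lineage genes. Over the 16 libraries the variable sum had a Spearman's rho of 0.94 with Ms4a1, which encodes the B cell surface protein CD20, and of 0.97 with both Igkc, the kappa constant gene, and Jchain, the joining chain of secreted IgM and IgA. These values share the library they come from and are given as a description. Lymph node stroma genes went the same way, with Ccl21a, the T zone chemokine, at 0.89 and Glycam1, a glycoprotein of lymph node vessels, at 0.90, and the T cell receptor component Cd3e at 0.90. Adipoq went the opposite way (-0.91) and Krt8, an epithelial keratin, did not follow (-0.13). All 14 resting B cell and 12 T cell markers and 7 of 8 lymph node stroma markers were listed, and their sums ranged from 658 to 153650, from 2465 to 61862 and from 1124 to 67599 across libraries. By group, the stroma sum was 1124 to 53256 in CON-LFD, 1539 to 67599 in DIO-HFD, 21886 to 26429 in DIO-LFD and 41199 to 56848 in DIO-VSG. The methods did not describe removal of the lymph node of the pad, and the part of lymph node tissue in the variable sums was not tested.

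The heavy constant gene of IgM and the kappa constant gene were not in the same ratio everywhere. In CON-LFD replicate 4, Ighm, the IgM constant gene, was at 14021 normalized counts and Igkc at 2432. DIO-HFD replicate 3 was similar, with Ighm at 12844 and Igkc at 689, whereas in DIO-HFD replicate 1 Ighm was at 137347 and Igkc at 99764. Kappa segments and the kappa constant gene kept a narrower ratio, since the Igkv sum was 0.294 to 0.655 of Igkc in all 16 libraries.

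The number of segments detected, meaning those with more than 3 reads, was 161, 5, 201 and 62 of 207 in CON-LFD and 204, 88, 30 and 193 in DIO-HFD. It was 162, 188, 174 and 181 in DIO-LFD and 193, 195, 197 and 188 in DIO-VSG. The means were 107 ± 89.8, 129 ± 84.1, 176 ± 11.1 and 193 ± 3.86 (SD, n = 4 each), and without CON-LFD replicate 2 the CON-LFD mean was 141. The DIO-VSG libraries lay close to the maximum of 207, and the lowest of them equalled the highest DIO-LFD library. Detection followed depth, with a rho of 0.96 to the variable sum over the 16 libraries, and the narrow range of DIO-VSG was not seen in that sum (SD 13229, against 3895 in DIO-LFD). When each library was reduced by calculation to 80 reads, the depth of the poorest, the expected number of segments with a read was 35 to 41.8 in CON-LFD, 33.4 to 49.0 in DIO-HFD, 33.1 to 51.8 in DIO-LFD and 47.8 to 53.0 in DIO-VSG. At that depth the 4 DIO-VSG libraries lay above the 4 CON-LFD libraries, whereas at full depth CON-LFD replicate 3 (201) exceeded all of them.

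Evenness was measured with Pielou's index, which is 1 when all segments with a read are equally used, and with the effective number of segments, the number of equally used segments that would give the same chance of drawing 1 segment in 2 draws (inverse of the unbiased Simpson index). Pielou evenness was 0.785, 0.932, 0.750 and 0.783 in CON-LFD and 0.838, 0.865, 0.744 and 0.782 in DIO-HFD. It was 0.834, 0.875, 0.642 and 0.865 in DIO-LFD and 0.869, 0.836, 0.864 and 0.884 in DIO-VSG. The group means were 0.813 ± 0.0811, 0.807 ± 0.0548, 0.804 ± 0.109 and 0.863 ± 0.0202 (SD, n = 4 each), and the ranges of all groups overlapped, CON-LFD and DIO-VSG only through CON-LFD replicate 2. The value of 0.932 came from the 37 segments that had a read among the 80 reads of CON-LFD replicate 2, and without that library the CON-LFD mean was 0.773. Divided by the log of all 207 members, so that segments without a read count too, evenness was 0.631 to 0.774 in CON-LFD and 0.833 to 0.879 in DIO-VSG, without overlap. In CON-LFD replicate 2 (0.631), 80 reads can reach at most 80 segments, so depth alone keeps this value low. The rest of CON-LFD was at 0.774, 0.749 and 0.698, from 9098, 75718 and 1840 variable reads.

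The effective number was less tied to depth (rho of 0.12 with the variable sum). It was 29.3, 31.6, 19.7 and 24.2 in CON-LFD, 41.6, 49.7, 10.9 and 27.2 in DIO-HFD, 38.7, 63.6, 7.75 and 60.2 in DIO-LFD, and 61, 49.4, 61.2 and 72.6 in DIO-VSG. The means were 26.2 ± 5.30, 32.3 ± 17.1, 42.6 ± 25.7 and 61 ± 9.45 (SD, n = 4 each). DIO-VSG lay above CON-LFD without overlap, and the remaining pairs of groups overlapped. In DIO-VSG, 20 to 27 segments were needed to reach 50% of the variable reads, against 9 to 12 in CON-LFD, 5 to 22 in DIO-HFD and 3 to 25 in DIO-LFD. CON-LFD replicate 3 had the second largest variable sum and 201 detected segments, yet an effective number of 19.7, so high detection and evenness did not go together there.

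**Figure D2:**
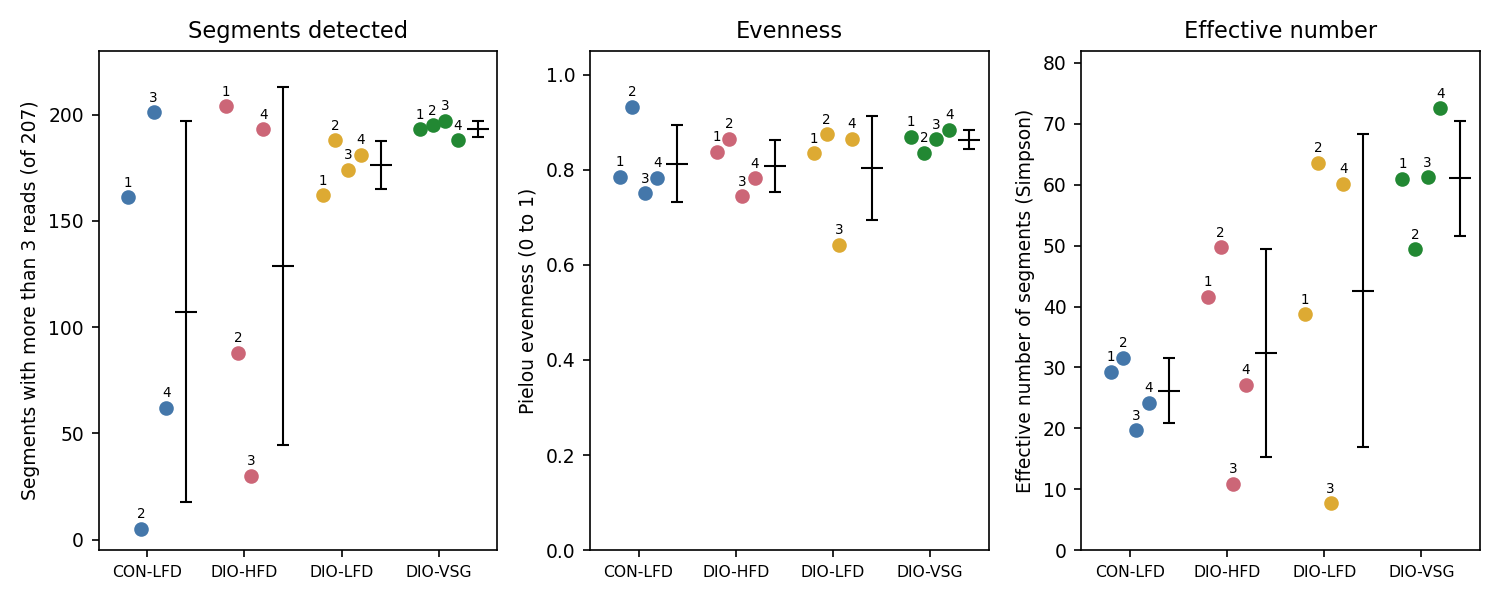
Segments with more than 3 reads (left), Pielou evenness (middle) and effective number of segments (right) per library by group. Points are libraries with their replicate number, and bars are the mean and SD of 4 libraries. DIO-VSG has the smallest spread in detection (188 to 197), and its effective numbers (49.4 to 72.6) lie above all CON-LFD values (19.7 to 31.6).

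The unevenness came from different segments in different libraries. Igkv17-127, which lies in the distal kappa cluster, took 49.7% of light-chain variable reads in DIO-LFD replicate 3 (95% exact binomial interval 48.8% to 50.5%, which like the intervals below covers counting error only), while its median in the other libraries was 1.44%. Its normalized counts were 131, 227, 5890 and 127 in DIO-LFD. In the same library Ighv1-62-2 took 29.5% of heavy reads and the near-identical Ighv1-71 25.9%, against medians over all libraries of 0.284% and 0.346%. Ighv1-62-2 shares 91.1% of its 76-base windows with other segments, mostly Ighv1-71, so the split of reads between them is uncertain. Ighg2b, the IgG2b constant gene, was at 26426 normalized counts in that library and at 2221, 1160 and 2459 in the other DIO-LFD libraries.

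In DIO-HFD replicate 4, Igkv2-137, the farthest member of the kappa cluster from the joining segments, took 19.2% of light reads (18.8% to 19.7%), against a median of 0.575% elsewhere. Its normalized counts in DIO-HFD were 626, 6.64, 4.37 and 5375. Ighv1-52 took 27.4% of heavy reads there (26.8% to 28.1%), against 0.948% elsewhere, with normalized counts of 289, 3.32, 3.27 and 4123 in DIO-HFD. Both were therefore high in replicate 4 alone, and Ighg2b stood at 33489 there and at 37260 in DIO-HFD replicate 1, where neither led. Ighv1-52 shares 46.7% of its windows, most with Ighv1-61, which was at 50 in that library.

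Igkv5-39 had the highest mean of all members (1802 normalized counts) but owed it to a pair of libraries. It took 26.5% of light reads in CON-LFD replicate 3 and 18.7% in DIO-HFD replicate 1, where it reached 11831 and 10137 normalized counts. In the remaining CON-LFD libraries it was at 169, 2.12 and 23.1. Ighv5-17 took 24.7% of heavy reads in CON-LFD replicate 3 (24.2% to 25.2%) with 6224 normalized counts, but 1.15% in DIO-HFD replicate 1, so the heavy leader was not shared. There the leading heavy segment was Ighv1-26, at 7.75%.

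Other libraries had leaders of their own. In CON-LFD replicate 1, Igkv8-30 took 17.4% of light and Ighv1-15 18.2% of heavy reads. In CON-LFD replicate 4 it was Igkv6-23 with 14.3% and Ighv1-11 with 20.1%, from 181 and 116 reads. Ighv1-11 had a median share of 0.118% in the other libraries. In DIO-LFD replicate 1 the leaders were Igkv3-10 with 17.1% and Ighv5-16 with 13.5%, and in DIO-HFD replicate 2 they were Igkv3-2 with 8.57% and Ighv1-22 with 10.7%. The most used heavy segment of CON-LFD replicate 2, Ighv10-1, rested on 8 reads.

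No DIO-VSG library had a strong leader. Their first light segment took 6.76% to 11.4% of light reads and their first heavy segment 6.90% to 11.1% of heavy reads. Leaders as weak were found in DIO-LFD replicate 4 (6.81% of light and 6.27% of heavy reads), DIO-LFD replicate 2 (10.3% and 8.90%) and DIO-HFD replicate 2. The light leaders were Igkv10-96 in replicates 1 and 2, Igkv16-104 in replicate 3 and Igkv1-117 in replicate 4. Igkv10-96 was also the leader of DIO-LFD replicate 2 and Igkv1-117 of DIO-LFD replicate 4. The first 5 segments together took 19.8% ± 2.73 of variable reads in DIO-VSG, against 36.9% ± 2.71 in CON-LFD, 33.6% ± 13.5 in DIO-HFD and 30.4% ± 18.1 in DIO-LFD (SD, n = 4 each).

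**Figure D3:**
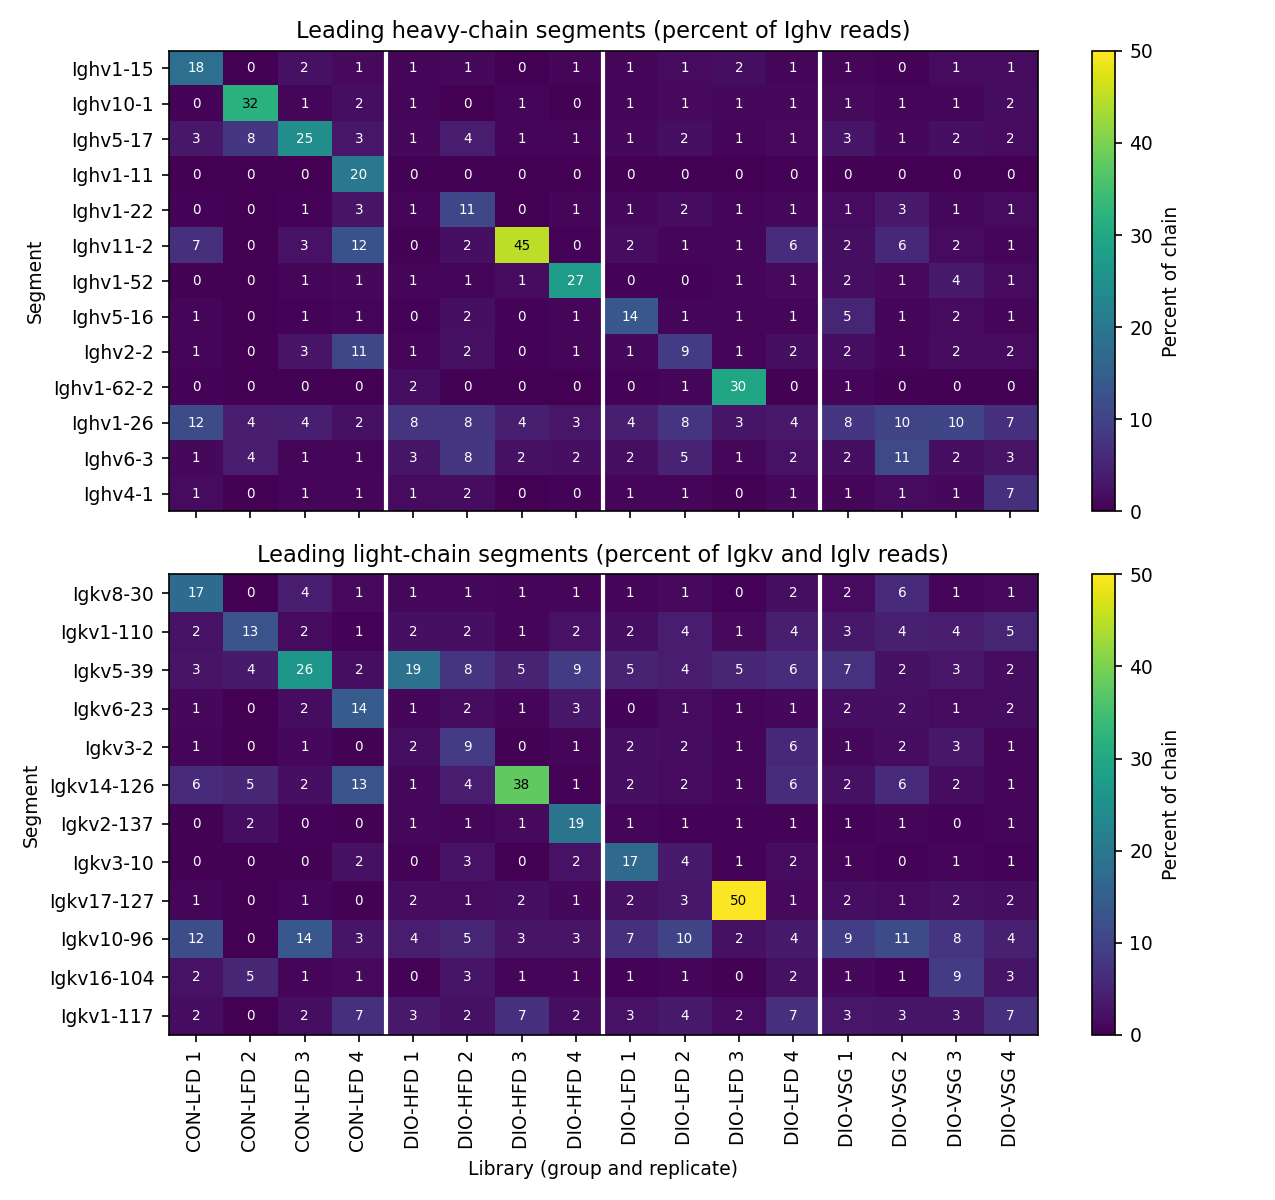
Share of heavy-chain reads (upper panel) and of light-chain reads (lower panel) taken by every segment that led a library, in percent, by library. Columns are libraries grouped by diet and surgery, rows are segments, and colour and number give the share. Most leaders are high in 1 column only, such as Igkv17-127 with 49.7% in DIO-LFD replicate 3, while Igkv10-96 and Ighv1-26 hold modest shares in many libraries.

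Ighv11-2 and Igkv14-126 are known to combine in B-1 cells, a self-renewing lineage of serous cavities, into antibodies against phosphatidylcholine, and Ighv12-3 and Igkv4-91 form another such pair. Ighv11-2 took 45.1% of heavy reads in DIO-HFD replicate 3 (38.3% to 52.0%), the highest heavy share of a single segment as counted, although Ighv1-62-2 and Ighv1-71, whose split is uncertain, together took more in DIO-LFD replicate 3. Igkv14-126 took 37.8% of the light reads of the same library (32.6% to 43.2%). These shares rested on 97 and 127 reads of the 551 variable reads of that library.

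The pair went together elsewhere as well. Ighv11-2 was at 6.65%, 0%, 2.51% and 12.5% of heavy reads in CON-LFD, 0.343%, 1.97%, 45.1% and 0.414% in DIO-HFD, 1.73%, 0.968%, 0.699% and 6.27% in DIO-LFD, and 1.79%, 5.82%, 1.56% and 0.706% in DIO-VSG. Igkv14-126 was at 5.97%, 5.45%, 2.14% and 12.9% of light reads in CON-LFD, 0.985%, 3.83%, 37.8% and 0.560% in DIO-HFD, 2.02%, 1.52%, 0.900% and 6.27% in DIO-LFD, and 2.30%, 6.04%, 1.57% and 0.975% in DIO-VSG. CON-LFD replicates 1 and 4, DIO-HFD replicate 3, DIO-LFD replicate 4 and DIO-VSG replicate 2 held more than 5% of both. Across the 16 libraries their shares had a Spearman's rho of 0.80, and Igkv14-126 ranked first of the 100 light segments in likeness to Ighv11-2, with the next at 0.59 and a median of -0.10. Ighv11-2 likewise ranked first of the 107 heavy segments in likeness to Igkv14-126. Without the libraries farthest from the median share (DIO-HFD replicate 3 and CON-LFD replicate 4), rho was 0.71 over 14 libraries.

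Ighv12-3 and Igkv4-91 were less alike over the 16 libraries. Ighv12-3 took at most 0.725% of heavy reads and Igkv4-91 at most 1.82% of light reads, and their rho was 0.35, which placed Igkv4-91 at rank 44 of the 100 light segments. Without DIO-LFD replicate 4 and CON-LFD replicate 2, the libraries farthest from the median share, that rho was 0.59 over 14 libraries. By group, Ighv11-2 was not separated, since each group had at least 1 library with 2.51% or less and at least 1 with 5.82% or more. The normalized counts of Ighv11-2 were 226, 0, 633 and 72.3 in CON-LFD, 119, 9.96, 106 and 62.3 in DIO-HFD, 60.1, 40.7, 42.9 and 344 in DIO-LFD, and 113, 981, 145 and 40 in DIO-VSG. Its count in DIO-HFD replicate 3 thus lay within the range of its group, while the sum of all segments there was the lowest of the group.

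Among the members with the highest mean normalized counts, some were broadly used. Counts were not corrected for transcript length (313 to 501 bases), so a ranking of segments by mean count is not a ranking by number of transcripts. Ighv1-26 had a median share of 5.47% of heavy reads and was between 2.25% and 11.6% in every library. Igkv10-96 had a median of 4.77% of light reads, with 0% in CON-LFD replicate 2 and 13.6% in CON-LFD replicate 3. Igkv6-15, with a median of 3.06%, was the 1 member with more than 3 reads in all 16 libraries. Igkv1-117 ranged from 0% to 6.85%, Igkv3-4 from 0.238% to 9.09%, Ighv1-53 from 0% to 5.6%, Ighv3-6 from 0.930% to 12% and Ighv6-3 from 0.693% to 11.1%. The upper ends of Igkv3-4 and Ighv3-6 came from CON-LFD replicate 2 and rest on a few of its 80 variable reads. Ighv6-3 was at 133, 1877, 199 and 149 normalized counts in DIO-VSG, so replicate 2 alone carried its high group mean.

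The lambda segments took 0% to 13.1% of the light reads of a library. Together they took 8.81%, 0%, 6.36% and 6.65% of light reads in CON-LFD and 5.57%, 13.1%, 1.19% and 6.23% in DIO-HFD. They took 7.70%, 7.55%, 5.13% and 9.41% in DIO-LFD and 11.7%, 5.12%, 7.95% and 12.2% in DIO-VSG. The group means were 5.46% ± 3.8, 6.52% ± 4.92, 7.45% ± 1.76 and 9.23% ± 3.33 (SD, n = 4 each), and the ranges overlapped. The 0% of CON-LFD replicate 2 was 0 of 55 light reads, which allows a share of up to 5.45%. Iglv1 had a mean of 513 normalized counts, Iglv2 of 287 and Iglv3 of 245. Heavy segments took 31.2% to 39.1% of variable reads over all libraries, with group means of 33.1% ± 2.31, 36.1% ± 3.65, 35.6% ± 1.30 and 34.6% ± 1.53 (SD, n = 4 each).

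By family, the 57 Ighv1 segments (the J558 family, the largest in the mouse) took 54.7% of all heavy reads pooled over libraries. Their share was 39.8% ± 15.8 in CON-LFD, 51.5% ± 20.7 in DIO-HFD, 56.8% ± 17.6 in DIO-LFD and 53.9% ± 5.56 in DIO-VSG (SD, n = 4 each). The 9 Ighv5 segments took 13.1%, with a highest share of 30.3% in CON-LFD replicate 3. The 28 Igkv4 segments took 10.8% of light reads, at 7.92% ± 1.40 in CON-LFD, 10.8% ± 3.68 in DIO-HFD, 7.89% ± 1.79 in DIO-LFD and 12% ± 1.25 in DIO-VSG. The 4 Igkv5 segments took 14.7%, mostly as Igkv5-39. Along the heavy locus, the 35 segments farthest from the diversity and joining segments took 17.9% ± 10.1 of heavy reads in CON-LFD, 39.4% ± 14.7 in DIO-HFD, 42.9% ± 19.8 in DIO-LFD and 33.5% ± 5.24 in DIO-VSG (SD, n = 4 each). Single libraries ran from 4.00% to 71.6%. The CON-LFD mean includes replicate 2 with its 80 variable reads, single leading segments move these shares, and the difference was not tested. Along the kappa locus, the 32 middle segments took the least in each library (7.33% to 18.4% of kappa reads).

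The 15 pseudogene members took 0.299% of all variable reads. The highest of them were Igkv4-73, with a mean of 13.4 normalized counts, and Igkv4-77, with 11, and 3 of the 15 had enough counts to be tested. Every one of the 207 members had more than 3 reads in at least 1 library. In all, 149 members exceeded 3 reads in 12 or more libraries and 10 members in 4 or fewer.

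By the median over pairs within a group, segment use was most alike among the DIO-VSG libraries. The percent of use that 2 libraries share (the sum over segments of the smaller of the 2 shares) was 67.5% to 76.9% for heavy segments among the 6 DIO-VSG pairs, with a median of 70.5%. The medians were 29.1% among the CON-LFD pairs, 38.7% among the DIO-HFD pairs, 50.2% among the DIO-LFD pairs and 51.2% among the 96 pairs from different groups. For light segments they were 71.3% in DIO-VSG, 32.4% in CON-LFD, 51.9% in DIO-HFD, 55.8% in DIO-LFD and 55.6% between groups. Single pairs from different groups were as much alike, since DIO-LFD replicate 2 shared 66.7% to 75.2% of heavy use with the DIO-VSG libraries, and its 78.7% of light use with DIO-VSG replicate 1 exceeded the highest DIO-VSG pair (77.2%). Without CON-LFD replicate 2 the CON-LFD medians were 36.7% and 37.1%. Libraries with few reads share less by counting error alone, and the pairs reuse the same libraries, so the values are a description.

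Differences of single segments were tested with limma on log2(normalized count + 1). Of the 207 members, 180 passed the filter (a normalized count of 10 reached in 4 or more libraries, 89 heavy, 88 kappa and all 3 lambda), among 21218 genes tested. No member passed an adjusted P value of 0.05 in any of the 6 comparisons. Over all genes, the percent passing was 0.0377% for DIO-HFD vs CON-LFD, 0.00471% for DIO-LFD vs CON-LFD and 0% for the other 4. The comparisons share groups, so their counts are not independent of each other. The members also share libraries whose variable sums moved with other B lineage genes, so they are not independent results. Counts of members with a positive fold change are therefore a description.

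Relative to CON-LFD, DIO-HFD had a positive log2 fold change for 164 of 180 members, with a median of 1.04 (0.02 over all genes). None had an unadjusted P value below 0.05 in either direction, against 5.23% of all genes higher and 7.66% lower. The smallest P values among segments higher in DIO-HFD belonged to Igkv1-99 (log2 fold change 2.83 ± 1.51 SE, limma adjusted P = 0.453) and Igkv2-137 (3.10 ± 1.87, adjusted P = 0.509), followed by Ighv1-50 (2.51 ± 1.58, adjusted P = 0.529). Igkv1-99 was at 9.93, 1.06, 16.6 and 0 normalized counts in CON-LFD and at 291, 14.4, 0 and 222 in DIO-HFD. Among those lower were Ighv10-1 (-0.84 ± 1.42), Ighv1-11 (-0.76 ± 1.34) and Ighv1-15 (-1.01 ± 1.95), all with an adjusted P of 0.845 or more by limma. With 1 weight per library in the fit, 65 members passed the adjusted threshold, against 19.8% of all genes. DIO-HFD replicate 4 then had a weight of 10.9 and the rest of its group 0.222 to 0.484, so it largely stood for DIO-HFD. CON-LFD replicate 1 had 2.35 and the rest of its group 0.384 to 0.56. The median over the members was 2.52 in that fit. It was -0.11 without DIO-HFD replicate 1 (76 of 180 members positive), 0.36 without DIO-HFD replicate 4, 0.04 without CON-LFD replicate 2 (95 positive) and 0.49 without CON-LFD replicate 4. It was 2.24 without CON-LFD replicate 3 and 2.21 without DIO-HFD replicate 3, with 21 and 19 members then at an unadjusted P below 0.05. No member had libraries of the groups that did not overlap, against 1.76% of all genes for higher and 3% for lower in DIO-HFD.

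Relative to DIO-HFD, DIO-VSG had a positive fold change for 177 of 180 members and a median of 1.78 (0.02 over all genes). With unadjusted P below 0.05, 1 member was higher and 0 lower, against 5.05% and 8.12% of all genes. That member was Ighv15-2 (2.34 ± 0.94 SE, limma adjusted P = 0.332), which was low throughout, at 13, 0, 0 and 4.10 normalized counts in DIO-HFD and 9.34, 15.3, 13.3 and 18.1 in DIO-VSG. Igkv14-100 was at 166, 1.11, 1.09 and 76.2 in DIO-HFD and 71.6, 377, 65.7 and 173 in DIO-VSG (3.11 ± 1.46, limma adjusted P = 0.38). Igkv3-7 was similar (2.66 ± 1.29, limma adjusted P = 0.387). Igkv3-9 (-0.70 ± 1.13), Igkv2-137 (-0.20 ± 1.87) and Igkv4-71 (-0.01 ± 1.14) were the 3 members lower in DIO-VSG. With library weights 6 members passed the adjusted threshold, 2 of them higher, against 17.6% of all genes, while the median was 0.07, with 95 of 180 members positive. In that fit DIO-HFD replicate 4 largely stood for its group (weight 10.9, against 0.222 to 0.484 for the rest). The median was 0.43 on the deposited scale, 0.64 without DIO-HFD replicate 3 (148 positive) and 1.12 without DIO-HFD replicate 2. Leaving out DIO-HFD replicate 1 gave 2.88, with 53 members at an unadjusted P below 0.05, and leaving out DIO-HFD replicate 4 gave 2.42, with 17. No member had libraries that did not overlap, against 2.37% of all genes higher and 4.22% lower.

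Relative to DIO-HFD, DIO-LFD had a positive fold change for 149 of 180 members, with a median of 0.63 (0.01 over all genes). None had an unadjusted P below 0.05, against 5.37% of all genes higher and 3.16% lower. Ighv1-34 (2.26 ± 1.31 SE, limma adjusted P = 0.708), Ighv1-61 (2.23 ± 1.42, adjusted P = 0.754) and Ighv1-49 (1.73 ± 1.13, adjusted P = 0.763) had the smallest P values among those higher. Igkv1-99 was the segment with the smallest P among those lower, at 0, 9.92, 3.81 and 9.19 normalized counts in DIO-LFD (-2.72 ± 1.51, limma adjusted P = 0.696). The median over the members was below 0 without DIO-HFD replicate 2 (-0.04) or replicate 3 (-0.48) and on the deposited scale (-0.08), and it was 1.79 without DIO-HFD replicate 1 and 1.26 without DIO-HFD replicate 4. With library weights the median was -1.04 and 7 members passed the adjusted threshold, none higher in DIO-LFD, against 8.54% of all genes. That fit rested mostly on DIO-HFD replicate 4 for its group (weight 10.9, against 0.222 to 0.484 for the rest). The groups overlapped for every member, against 3.01% of all genes higher without overlap and 1.5% lower.

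Relative to DIO-LFD, DIO-VSG had a positive fold change for 173 of 180 members, with a median of 1.16 (-0.02 over all genes). None had an unadjusted P below 0.05, against 4.30% of all genes higher and 5.41% lower. Nevertheless, in 60 of the 180 members all 4 DIO-VSG libraries lay above all 4 DIO-LFD libraries, and in 0 below, against 12.9% and 5.83% of all genes. The fit of these 8 libraries alone, which does not use the wide spread of the other groups, gave 19 members with adjusted P below 0.05, all higher in DIO-VSG, against 7.22% of all genes. Igkv11-125 was at 2.18, 10.9, 0 and 2.04 in DIO-LFD and 14.5, 54.9, 32.8 and 5.72 in DIO-VSG (2.68 ± 1.26 SE, limma adjusted P = 0.510), and so did overlap. Ighv1-62-2 and Igkv3-10 were lower in DIO-VSG (-1.18 ± 1.99 and -1.21 ± 1.77), and each had 1 high DIO-LFD library, at 1810 and 1030 normalized counts. Without DIO-LFD replicate 3 Ighv1-62-2 was at 0.40, whereas Igkv3-10 remained lower without DIO-LFD replicate 1 (-0.50).

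Relative to CON-LFD, DIO-VSG had a positive fold change for 179 of 180 members, with a median of 2.81 (-0.02 over all genes). With unadjusted P below 0.05, 47 members (26.1%) were higher and 0 lower, against 10.2% and 7.55% of all genes, and the smallest adjusted P was 0.268. Igkv19-93 was at 55.2, 0, 291 and 8.04 normalized counts in CON-LFD and 216, 650, 296 and 287 in DIO-VSG (4.08 ± 1.45 SE, limma adjusted P = 0.268). Its DIO-VSG libraries were above CON-LFD except that replicates 1 and 4 lay below CON-LFD replicate 3. Igkv6-14 was at 8.83, 0, 33.2 and 0 and at 44.6, 88.1, 70.8 and 78.1 (4.02 ± 1.44, limma adjusted P = 0.268), and Ighv1-49 at 1.10, 0, 4.61 and 0 and at 13.5, 45.9, 6.16 and 9.53 (3.02 ± 1.13, limma adjusted P = 0.268). Igkv6-14 and Ighv1-49, with Igkv1-99, Igkv4-92 and Ighv1-2, were the 5 members whose DIO-VSG libraries all exceeded the CON-LFD libraries, against 2.59% of all genes higher and 4.43% lower without overlap, and 0 members were lower without overlap. The median was 0.82 on the deposited scale. Without CON-LFD replicate 2 the median was 1.86 and the number with unadjusted P below 0.05 was 2. That number was 4 without CON-LFD replicate 4, 8 without DIO-VSG replicate 2, 15 without DIO-VSG replicate 3 and 29 without DIO-VSG replicate 1. It was 74 without DIO-HFD replicate 1 and 76 without DIO-HFD replicate 3, which enter only through the shared spread, and without CON-LFD replicate 3, where the median was 3.92, it was 139, of which 7 passed the adjusted threshold (4.11% of all genes did). With library weights 33 members passed, against 19.9% of all genes. CON-LFD replicate 1 then had a weight of 2.35 and the rest of its group 0.384 to 0.56.

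Relative to CON-LFD, DIO-LFD had a positive fold change for 172 of 180 members, with a median of 1.62 (0.02 over all genes). With unadjusted P below 0.05, 4 members (2.22%) were higher and 0 lower, against 3.23% and 3.03% of all genes. They included Igkv17-127 (4.66 ± 1.83 SE, limma adjusted P = 0.707), which was at 50.8, 0, 268 and 3.01 normalized counts in CON-LFD and led DIO-LFD replicate 3. Ighv1-61 (3.35 ± 1.42, limma adjusted P = 0.753) and Ighv1-49 (2.64 ± 1.13, limma adjusted P = 0.758) came next, and Igkv19-93 (3.12) was the fourth, named after its value was seen. Without CON-LFD replicate 2 the median was 0.60, with 136 members positive and none at an unadjusted P below 0.05. Without CON-LFD replicate 4 it was 1.07, again with none, and without CON-LFD replicate 3 it was 2.89, with 67. Ighv5-17 (-0.40 ± 1.85), Ighv2-6 (-0.89 ± 1.72) and Igkv3-9 (-0.73 ± 1.13) were lower, and all 3 were positive without CON-LFD replicate 3 (1.69, 0.57 and 0.17). For every member the libraries overlapped, against 1.73% of all genes higher and 1.81% lower without overlap.

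**Figure D4:**
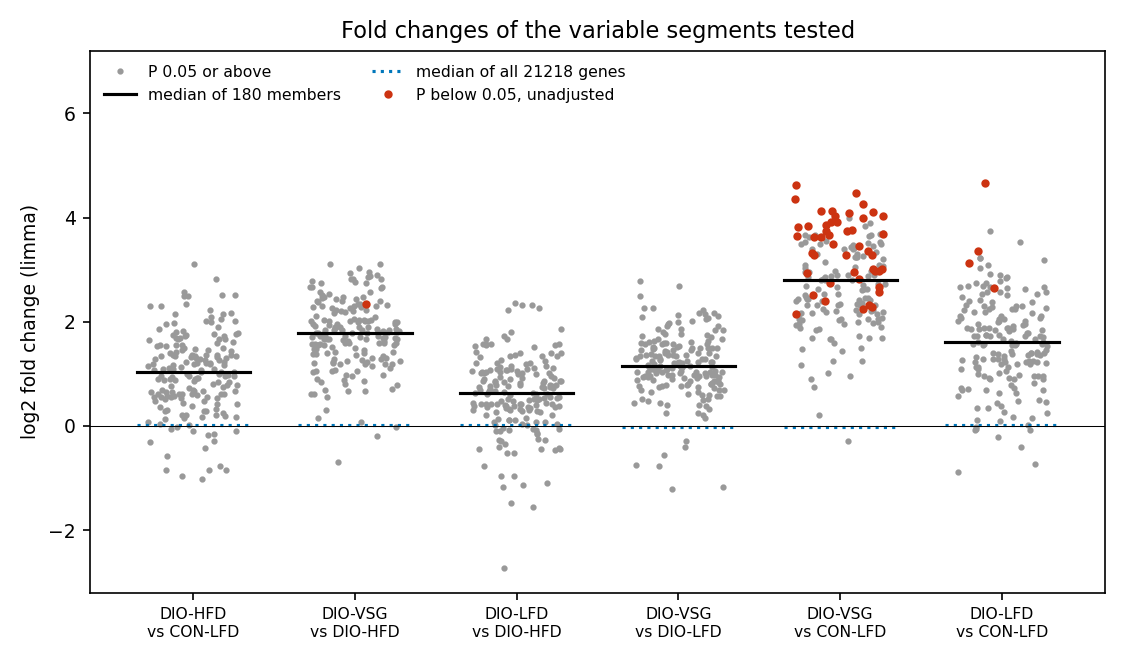
log2 fold changes by limma of the 180 variable segments tested, for the 6 comparisons named on the horizontal axis. Dots are segments, red where the unadjusted P value is below 0.05, solid lines are the medians of the segments and dotted lines those of all 21218 genes. The medians of the segments are 0.63 to 2.81 and those of all genes -0.02 to 0.02.

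The other genes of the antibody pathway and the markers of neighbouring cell types were taken from lists. None of the 12 immunoglobulin constant genes tested (of 13 listed) passed the adjusted threshold in any comparison, and their median log2 fold changes were 1.07, 2.01, 1.00, 1.10, 3.10 and 2.14 in the order of the comparisons above. For the 14 resting B cell genes the medians were 1.15, 2.75, 1.52, 1.22, 3.89 and 2.66, and all 14 had an unadjusted P below 0.05 for DIO-VSG vs CON-LFD, against 10.2% of all genes higher, though 0 passed the adjusted threshold by limma. For the 12 T cell genes the medians were 0.54, 2.20, 0.83, 1.42, 2.70 and 1.25, and for the 7 lymph node stroma genes tested 0.75, 2.67, 1.39, 1.23, 3.09 and 1.82. Of these, 9 and 4 had an unadjusted P below 0.05 for DIO-VSG vs CON-LFD, all higher, and 0 passed the adjusted threshold. The 10 plasma cell genes, which the tissue expresses in other cells too, had medians of 0.49, 0.00, 0.08, 0.23, 0.19 and 0.13, and the 8 germinal centre genes, a list that holds proliferation and widely expressed genes, 0.03, -0.03, -0.11, 0.71, 0.02 and -0.10. Of the recombination and surrogate light chain genes, 5 of 7 were listed and 3 tested, with medians of 0.67, 2.50, 0.90, 1.11, 3.05 and 1.57, and all 3 had an unadjusted P below 0.05 for DIO-VSG vs CON-LFD. Among the 5, Rag1, the recombinase that cuts the segments in developing lymphocytes, was at most 77.8 normalized counts (DIO-HFD replicate 4), and Vpreb1, a surrogate light chain of pre-B cells, at most 19.4, while Vpreb3 reached 342 and Dntt, the polymerase that adds bases at the joins, 163. The 8 adipocyte genes had medians of -0.44, 0.00, 0.40, -0.42, -0.50 and -0.06, and none of them was positive for DIO-VSG vs DIO-LFD or for DIO-VSG vs CON-LFD. The 8 mammary epithelium genes had medians of -0.70, 0.36, 0.86, -0.40, -0.40 and 0.11, and 5 of them were higher at an unadjusted P below 0.05 for DIO-LFD vs DIO-HFD, against 5.37% of all genes. None of these genes passed the adjusted threshold. The listed heavy joining segments, Ighj1 and Ighj4, were at 0 to 42.6 and at 0 to 101. Ighg2b, Ighg2c, Ighg1, Ighg3, Igha and Ighe together, the switched isotypes, made up 35.6%, 4.56%, 43.6% and 7.56% of heavy constant counts in CON-LFD and 33.1%, 25.5%, 0.999% and 41.9% in DIO-HFD. They made up 18.8%, 20.5%, 46.3% and 13.8% in DIO-LFD and 17.1%, 20.4%, 20.5% and 10.5% in DIO-VSG. The libraries with the highest shares, DIO-LFD replicate 3, CON-LFD replicate 3 and DIO-HFD replicate 4, were among those in which 1 heavy segment took over 24% of heavy reads. CON-LFD replicate 2 and DIO-HFD replicate 3 also had such a leader but had the lowest shares. Their heavy constant counts were mostly Ighm (1006 and 12844) with few variable reads beside them. The Ighv sum was 0.0233 and 0.0178 of heavy constant counts there, against 0.0369 to 0.143 elsewhere, and the cause was not tested.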

How the data were processed

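Total RNA of the contralateral mammary fat pad was sequenced with a stranded kit in 16 libraries, 4 per group. The deposited values were log2 values from the variance-stabilizing transformation of DESeq2, made by the authors from gene counts. The study's methods name STAR and salmon on GRCm38, whereas the submitters' processing notes name TopHat2 2.0.7, HTSeq 0.5.3p9 and mm10, and which made these values is not settled. No listed gene had fewer than 10 reads in all. The transformation was inverted to normalized counts, and division by the value of 1 read gave whole reads for 100% of values (tolerance 0.01), with 46907377 to 57610899 reads per library and size factors of 0.904 to 1.22.

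The variable segments and gene lists were chosen with earlier results of these data known. Two-sided tests used limma 3.58.1 (limma-trend, R 4.3.3). The 16 libraries entered a joint model of the 4 group means, without covariates, of the log2 of the normalized count plus 1. It covered the 21218 genes that reached a normalized count of 10 in 4 or more libraries. P values were adjusted by Benjamini-Hochberg over all genes tested, with a threshold of 0.05. The pseudocount understates the change of low genes. The procedure was run on simulated data in which every gene had the same dispersion. Those data lacked the differences between libraries seen for the variable segments, so the run does not show how the test performs for them. Named segments were the 6 heavy, 6 kappa and all lambda segments with the highest means, the 3 with the smallest P among those higher and among those lower in each comparison, the leaders of each library, and the segments of B-1 cells. Alternatives were other pseudocounts (0.5 and 5), filters, scalings, weights, library sets and a replicate block. Positions and germline bases were taken from GENCODE M21 and GRCm38. Count-based tools were not used. The values of 1 gene are not reported here.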

Additional observations from a re-analysis of the deposited data

Results flagged for a closer look

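Within each group of 4 libraries, a library was marked when its gap to the nearest other library took a larger part of the range of the group than Dixon's 95% critical value. Of 216 values examined, 52 were marked, of which 50 were among 180 values of the 45 named segments. Chance marks about 1 in 20 groups. That rate is no yardstick for the named segments, since many of them were named for leading a library or for a high mean, which favours a single high library. Of the 50, 47 were on the high side, and CON-LFD held 21, DIO-HFD 9, DIO-LFD 11 and DIO-VSG 9. The values of one library are not independent of each other, and no cause was tested.

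The summed variable segments were marked in CON-LFD, where replicate 3 was at 69849 normalized counts and the next library at 10041. The heavy-chain share was marked in DIO-VSG, where replicate 2 was at 36.9% of variable reads and the next library at 33.9%.

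In CON-LFD replicate 3, the highest normalized counts of the group were Ighv5-17 at 6224, Ighv1-52 at 177, Ighv3-6 at 698, Ighv6-3 at 217, Igkv5-39 at 11831, Igkv10-96 at 6056 and Igkv3-4 at 1525. The same library also held Igkv1-117 at 784, Igkv6-15 at 890, Igkv2-137 at 200, Ighv10-1 at 240, Ighv15-2 at 19.4, Igkv3-9 at 21.2 and Igkv4-71 at 12.9. The same library also held Ighv1-34 at 33.2, Igkv3-1 at 36, Ighv2-6 at 364, Igkv3-2 at 482, Ighv12-3 at 84.9 and Igkv4-91 at 322. In CON-LFD replicate 4, the highest normalized counts of the group were Ighv1-11 at 117. In DIO-HFD replicate 1, the highest normalized counts of the group were Ighv1-26 at 2695, Igkv3-4 at 3319, Ighv1-50 at 923, Ighv1-11 at 71.3, Ighv1-62-2 at 614, Igkv6-14 at 263 and Ighv2-6 at 349. In DIO-HFD replicate 4, the highest normalized counts of the group were Ighv1-52 at 4123 and Igkv2-137 at 5375. In DIO-LFD replicate 1, the lowest normalized counts of the group were Iglv3 at 116 and Igkv6-23 at 28.4. In DIO-LFD replicate 2, the lowest normalized counts of the group were Iglv2 at 81.3. In DIO-LFD replicate 3, the highest normalized counts of the group were Igkv17-127 at 5890 and Ighv1-62-2 at 1810. In DIO-LFD replicate 4, the highest normalized counts of the group were Igkv3-4 at 609, Ighv1-34 at 142, Igkv3-2 at 565, Igkv14-126 at 644, Igkv16-104 at 237 and Ighv11-2 at 344. In DIO-VSG replicate 2, the highest normalized counts of the group were Ighv6-3 at 1877, Igkv2-137 at 204, Ighv10-1 at 162, Igkv8-30 at 1714, Igkv6-23 at 618, Igkv14-126 at 1744 and Ighv11-2 at 981. In DIO-VSG replicate 3, the highest normalized counts of the group were Igkv3-9 at 11.3 and Igkv16-104 at 1612.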

How the results depend on the processing

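No member passed the adjusted threshold under other pseudocounts, filters, scalings, the deposited scale or voom on whole reads in any of the 6 comparisons. With 1 weight per library, 65 members passed for DIO-HFD vs CON-LFD (19.8% of all genes did), 33 for DIO-VSG vs CON-LFD (19.9%), 6 for DIO-VSG vs DIO-HFD (17.6%), of which 2 were higher, and 7 for DIO-LFD vs DIO-HFD (8.54%), of which 0 were higher. The weights were uneven, with DIO-HFD replicate 4 at 10.9 and the rest of its group at 0.222 to 0.484, so 1 library largely stood for DIO-HFD. With only the 8 libraries compared, 19 passed for DIO-VSG vs DIO-LFD (7.22%). Leaving out 1 library gave 0 to 7 for DIO-VSG vs CON-LFD and 0 in the other 5 comparisons. Scaling by library totals moved the median of all genes to 0.16 for DIO-HFD vs CON-LFD, where that of the members was 1.15. Replicate numbers did not pair the libraries (r from -0.609 to 0.534 over 24 same-number pairs, median 0.0179). With the replicate block 0 members passed in each comparison, and 35 instead of 47 had an unadjusted P below 0.05 for DIO-VSG vs CON-LFD.

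Leaving out 1 library moved the log2 ratio of summed counts from -0.44 to 3.07 for DIO-HFD vs CON-LFD, -0.71 to 0.85 for DIO-VSG vs DIO-HFD, -1.70 to -0.14 for DIO-LFD vs DIO-HFD, 0.62 to 1.16 for DIO-VSG vs DIO-LFD, -0.0045 to 2.77 for DIO-VSG vs CON-LFD and -0.99 to 1.78 for DIO-LFD vs CON-LFD. It moved mean detection over 76 to 141 in CON-LFD, 104 to 162 in DIO-HFD, 172 to 181 in DIO-LFD and 192 to 195 in DIO-VSG, and mean evenness over 0.773 to 0.833, 0.788 to 0.828, 0.780 to 0.858 and 0.856 to 0.872. Counting segments with 1 read or more gave 193 in DIO-LFD (184 to 198) and 202 in DIO-VSG (201 to 204). With 10 reads or more the means were 144 (126 to 154) and 176 (171 to 185). At both limits these groups did not overlap, though detection followed depth. At 80 reads the means were 43.1 in DIO-HFD, 45.5 in DIO-LFD and 50.8 in DIO-VSG. Evenness divided by the log of all members was 0.713 in CON-LFD, and the effective numbers were 26.2, 32.3, 42.6 and 61.

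On the deposited log2 scale the median fold change of the members was 0.43 for DIO-HFD vs CON-LFD, 0.43 for DIO-VSG vs DIO-HFD, 0.53 for DIO-VSG vs DIO-LFD, 0.82 for DIO-VSG vs CON-LFD and 0.31 for DIO-LFD vs CON-LFD, and with a pseudocount of 5 it was 0.17 for DIO-LFD vs DIO-HFD (0.28 with quantile normalization), 1.13 for DIO-VSG vs DIO-HFD, 1.83 for DIO-VSG vs CON-LFD and 0.91 for DIO-LFD vs CON-LFD. It changed sign for DIO-HFD vs CON-LFD (-0.11 to 2.24 leaving out 1 library) and for DIO-LFD vs DIO-HFD (-0.48 to 1.79, -0.08 on the deposited scale and -1.04 with library weights). Among single segments in DIO-HFD vs CON-LFD, Ighv10-1 was at 1.30 and Ighv1-11 at 0.08 with library weights. Leaving out 1 library there gave -2.22 to 0.45 for Ighv10-1, -1.94 to 0.40 for Ighv1-11 and -2.79 to 0.43 for Ighv1-15. In DIO-VSG vs DIO-HFD, Igkv4-71 was at 0.16 with a pseudocount of 0.5, at 0.01 with voom and at -0.89 to 0.70 leaving out 1 library, and Igkv2-137 at -1.64 to 1.68. The same range was -1.83 to 0.40 for Ighv1-62-2 in DIO-VSG vs DIO-LFD and -0.98 to 0.61 for Igkv3-9 in DIO-VSG vs CON-LFD. In DIO-LFD vs CON-LFD it was -1.33 to 0.17 for Igkv3-9, -2.27 to 0.57 for Ighv2-6 and -1.96 to 1.69 for Ighv5-17. The cause was not tested for any of these. Libraries with few variable reads (80, 551, 1448 and 1840) limit what detection, evenness and shares can show.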
